A study of Mus musculus with 6 samples.

Results

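The genes described here are 39 mouse genes that work at the replication fork or supply it: the factors that license origins of replication, the helicase that unwinds DNA, the polymerases and their clamp, the enzymes that make deoxynucleotides, and factors that rebuild chromatin behind the fork. The list is given by symbol, and no measured value enters the rule that makes it. It was, however, chosen with earlier results of these data known. Each symbol matched 1 Ensembl identifier among the 49585 genes of the count tables. All 39 passed the filter on low counts that left 14785 genes for testing, and the lowest count of any of them in any library was 180 reads.

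The libraries came from haematopoietic stem cells (HSCs), the source of all blood lineages, sorted from the bone marrow of untreated C57BL/6 mice aged 8 to 16 weeks that carried no transgene or deletion named in the labels. Lineage-negative (Lin-) cells positive for Kit, Sca-1, CD150 and CD201 and negative for CD48 and CD34 were divided by surface CD38, an ectoenzyme that consumes NAD, into a CD38-positive group (the brighter cells) and a CD38-negative group (the dimmer cells). Each group has 3 libraries, each made from the pooled cells of 10 mice, and the series' design text matches them into 3 pairs, numbered here as the replicates. Whether paired pools shared their mice is not stated. The study concerns CD38 and HSC dormancy, and the question here is how transcripts of the replication machinery compare between the populations.

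Before S phase, the origin recognition complex (ORC), CDC6 and CDT1 load the MCM2-7 ring onto DNA as an inactive double hexamer, which is called licensing. In S phase CDC45 and the GINS complex join each ring to form the active helicase, and polymerases held by the sliding clamp PCNA copy the strands. Most of these genes are transcribed under E2F factors as cells leave quiescence. HSCs are known as a mostly quiescent population, while the progenitors below them divide often.

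Promoter sequences of 4 of the genes are shown because E2F binding letters can be searched for in them, and because the 4 behave differently in the counts: Mcm6 is the most abundant MCM subunit here, Cdt1 and Mcm10 have the largest difference within pair 2, and Pola1 has the opposite sign there. Each sequence is the 250 bases before the RefSeq start of transcription on GRCm38.p6, read 5′ to 3′ on the strand of the gene. Capitals mark E2F-type letters (TTCCCGC, or else the word TTGGCGC, or else the word TTCGCGC, or else the word TTGCCGC, on either strand, overlaps merged) and CCAAT on either strand, the letters that NF-Y binds.
Mcm6 (chr1:128359706-128359955, minus strand): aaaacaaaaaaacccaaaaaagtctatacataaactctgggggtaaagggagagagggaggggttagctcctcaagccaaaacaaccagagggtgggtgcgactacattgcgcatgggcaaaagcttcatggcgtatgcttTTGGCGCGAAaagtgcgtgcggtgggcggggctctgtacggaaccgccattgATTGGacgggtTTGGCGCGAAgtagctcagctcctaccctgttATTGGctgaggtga
Mcm10 (chr2:5012792-5013041, minus strand): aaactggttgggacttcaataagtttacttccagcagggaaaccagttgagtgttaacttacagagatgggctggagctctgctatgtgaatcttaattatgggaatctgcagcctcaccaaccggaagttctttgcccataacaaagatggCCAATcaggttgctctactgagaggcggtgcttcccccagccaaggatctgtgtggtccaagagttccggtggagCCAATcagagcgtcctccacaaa
Cdt1 (chr8:122567765-122568014, plus strand): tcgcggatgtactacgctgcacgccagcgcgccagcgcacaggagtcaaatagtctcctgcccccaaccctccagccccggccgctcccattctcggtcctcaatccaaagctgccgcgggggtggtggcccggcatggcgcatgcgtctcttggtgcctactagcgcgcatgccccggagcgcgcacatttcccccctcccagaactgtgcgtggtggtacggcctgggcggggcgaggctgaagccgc
Pola1 (chrX:93632156-93632405, minus strand): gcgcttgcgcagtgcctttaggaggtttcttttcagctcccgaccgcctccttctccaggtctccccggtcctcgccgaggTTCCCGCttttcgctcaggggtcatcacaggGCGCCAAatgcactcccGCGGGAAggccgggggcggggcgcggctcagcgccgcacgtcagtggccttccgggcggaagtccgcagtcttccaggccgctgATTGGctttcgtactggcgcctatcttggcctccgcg
In the stretch shown, Mcm6 has 4 overlapping E2F-type matches in 2 places, from 109 to 100 and from 46 to 37 bases before the start. Pola1 has 3, the nearest ending 115 bases before the start. Mcm10 has CCAAT matches only, and Cdt1 has neither. Cdt1 does have 2 E2F-type matches just past its start, at 18 and 33 bases after it.

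RefSeq promoter windows, from 250 bases before to 50 after a start, were found for 33 of the 39 genes, as 39 windows because some genes have several starts. Genes with no window were Mcm4, Gins1, Gins2, Gins4, Pole and Rfc2. E2F-type letters were present in 25 of the 39 windows (64.1%), against 9.57% of all 32851 windows in the table. CCAAT was present in 64.1% against 37.4%, and GGGCGG, the letters of a GC box, in 66.7% against 35.7%. TTTGAA, searched for because promoters of many mitosis genes hold it, was present in 10.3% against 17.9%. The replication genes thus held E2F-type letters far more often than promoters at large, which were not matched to them for GC content. Genes with several starts count more than once, and these shares describe sequence only.

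Total counts ranged from 16771180 to 18558610 reads per library, so 3 reads correspond to at most 0.179 CPM before TMM scaling; CPM is the normalised read count (reads scaled to library size). All CPM values below use TMM scaling, which sets libraries level by their trimmed mean log ratios, with factors from 0.900 to 1.07. Cd38 itself averaged 47.2 CPM in CD38-positive and 27.9 CPM in CD38-negative libraries and was higher in CD38-positive cells in each pair, although edgeR gave it an adjusted p = 0.893. All 13 HSC markers, Cd38 among them, were detected in every library. Neutrophil markers were present as well: 8 genes, none at 0 in any library, summed to 60986 to 146263 CPM in CD38-positive and 72143 to 117814 CPM in CD38-negative libraries. Exons of 14 of the 39 genes overlap a gene on the opposite strand, and the strand setting of the counting is not given in the sources used here. For these 14 genes (Orc1, Orc2, Orc6, Mcm7, Cdc45, Gins2, Pole, Rfc2, Rfc4, Rfc5, Fen1, Lig1, Tk1 and Chaf1a) reads in the overlap can be told apart only if the counting used strand.

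Compared across all 3 pairs, the replication genes did not differ between CD38-positive and CD38-negative cells past the threshold. By edgeR's quasi-likelihood F-test, blocked by pair, 0 of the 39 had an adjusted p-value under 0.05, and 0 had even an unadjusted p-value under 0.05. Over all genes tested these shares were 0.0135% and 5.08%, the latter made of 2.47% higher and 2.61% lower. The smallest unadjusted p-value was 0.0937, for Mcm10, and the smallest adjusted one was 0.926. Populations overlapped for every one of the 39 genes, where 3.33% of all genes were higher without overlap in CD38-positive libraries and 3.19% lower. In bulk libraries, fewer cells of a type and less RNA per cell cannot be told apart.

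The fitted log2 fold changes, CD38-positive relative to CD38-negative, had a median of 0.18, against 0.00 for all genes, and 31 of 39 were above 0, against 50.1% of all genes. The intervals of these fits borrow much of their spread from other genes. Of 13.95 degrees of freedom per gene, a median of 11.95 came from a prior shared by all genes. The 95% interval of each of the 39 log2 fold changes lay within 1 of 0, that is, within a 2-fold change in either direction. The same held for 66.6% of all genes with an interval, a set that includes genes with fewer reads. Single pairs went beyond this bound, as pair 2 did for Cdt1 (1.23) and Pola1 (-1.03).

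Within pairs the picture varied, and the 3 pairs did not show 1 direction. The median within-pair difference on the log2 CPM scale was 0.06 in pair 1, 0.58 in pair 2 and -0.13 in pair 3. CD38-positive was above CD38-negative for 27, 35 and 9 of the 39 genes in pairs 1, 2 and 3, where the shares over all genes were 50.3%, 48.7% and 52.6%. In pair 2 the difference exceeded counting error (exact 95% binomial interval of the read ratio) upward for 33 genes and downward for 3, against 31.7% and 33.4% of all genes. In pair 3 it did so upward for 5 and downward for 23, against 29.3% and 26% of all genes. Pair 1 had 18 genes upward and 4 downward, against 20.2% and 19% of all genes.

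Scaling moved the small differences of pairs 1 and 3 past 0 and left that of pair 2. With unscaled library totals the pair medians of the 39 genes were -0.07, 0.52 and 0.00, with 12, 34 and 20 of 39 above 0, and the medians of all genes moved to -0.12, -0.08 and 0.16. Relative to the median of all genes, the list was at 0.06, 0.61 and -0.16 with TMM, and at 0.06, 0.60 and -0.16 with unscaled totals. Signs within pairs 1 and 3 below are those under TMM scaling.

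**Figure D1:**
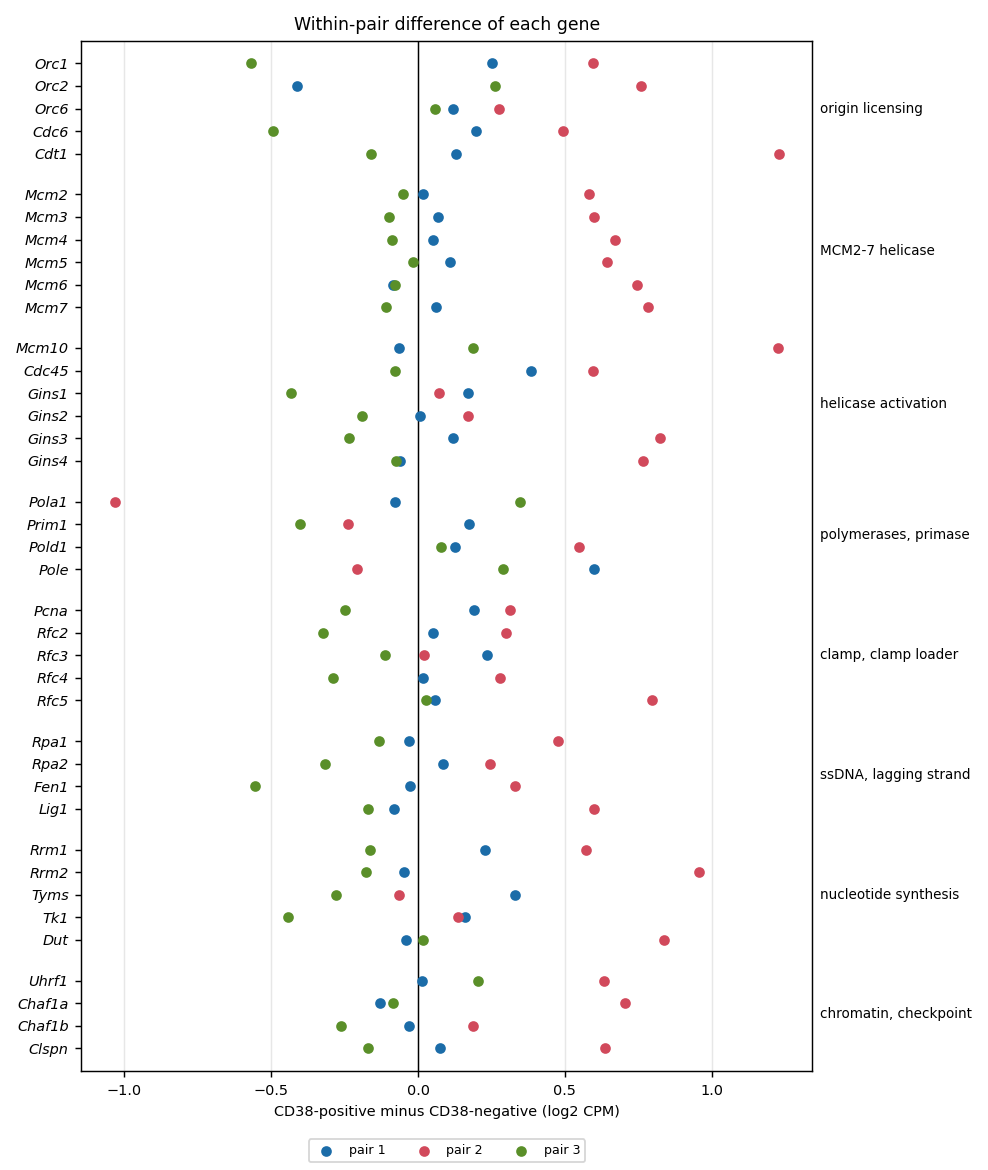
Difference between the CD38-positive and the CD38-negative library of each pair (log2 CPM after TMM scaling, horizontal axis) for each of the 39 genes, grouped by role; 1 point per pair. Points of pair 2 lie above 0 for 35 genes and reach 1.23 for Cdt1, while points of pair 3 lie above 0 for 9 (20 with unscaled totals).

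Such intervals compare 2 libraries and cover counting error only. Whether the difference in pair 2 differs from that in the other pairs was not tested. Genes higher in CD38-positive cells in all 3 pairs numbered 4 (Orc6, Pold1, Rfc5 and Uhrf1), or 10.3%, near the 13.2% of all genes. For none of these 4 did the difference exceed counting error in all 3 pairs. None of the 39 was lower in all 3, against 11.3% of all genes. Without pair 2 the median fitted log2 fold change was -0.06 and 12 of 39 were above 0. Without pair 1 the median was 0.21, with 27 above 0, and without pair 3 it was 0.30, with 37 above 0.

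The libraries themselves fell in an order that cut across the populations. Summed over the 39 genes, expression was 8524, 8973 and 6029.8 CPM in CD38-positive replicates 1, 2 and 3, and 8249, 5975 and 6662 CPM in their CD38-negative partners. CD38-positive replicate 2 had the highest sum and its own CD38-negative partner the lowest. The CD38-positive sums averaged 7842 ± 1586 CPM (SD, n = 3). The CD38-negative sums averaged 6962 ± 1166 CPM (SD, n = 3), a difference smaller than the spread within either population.

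CD38-positive replicate 2 was the highest library for 18 of the 39 genes and CD38-positive replicate 1 for 13, where 21.4% and 15.6% of all genes had their highest value in these libraries. The other 4 libraries were highest for few: CD38-negative replicates 1, 2 and 3 for 2, 1 and 4 genes (8.28%, 20.6% and 18.8% of all genes) and CD38-positive replicate 3 for 1 (15.3%). At the other end, CD38-negative replicate 2 was the lowest library for 17 and CD38-positive replicate 3 for 14, against 19.9% and 12.4% of all genes. CD38-negative replicates 3 and 1 were lowest for 5 and 1 (20% and 8.91% of all genes), CD38-positive replicate 2 for 2 (22.6%) and CD38-positive replicate 1 for 0 (16.2%). The highest values thus lay mostly in CD38-positive replicates 1 and 2, and the lowest in 1 library of each population. Over the 741 gene pairs in the list, the median Pearson correlation of log2 CPM across the 6 libraries was 0.64, and 88.5% were above 0. No such figures were computed for all genes tested. Pole, Pola1 and Prim1 did not move with the rest, with mean correlations to the other genes of the list of -0.43, -0.02 and 0.11. These correlations describe how the genes moved together in these libraries, which share their pairs and their scaling.

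**Figure D2:**
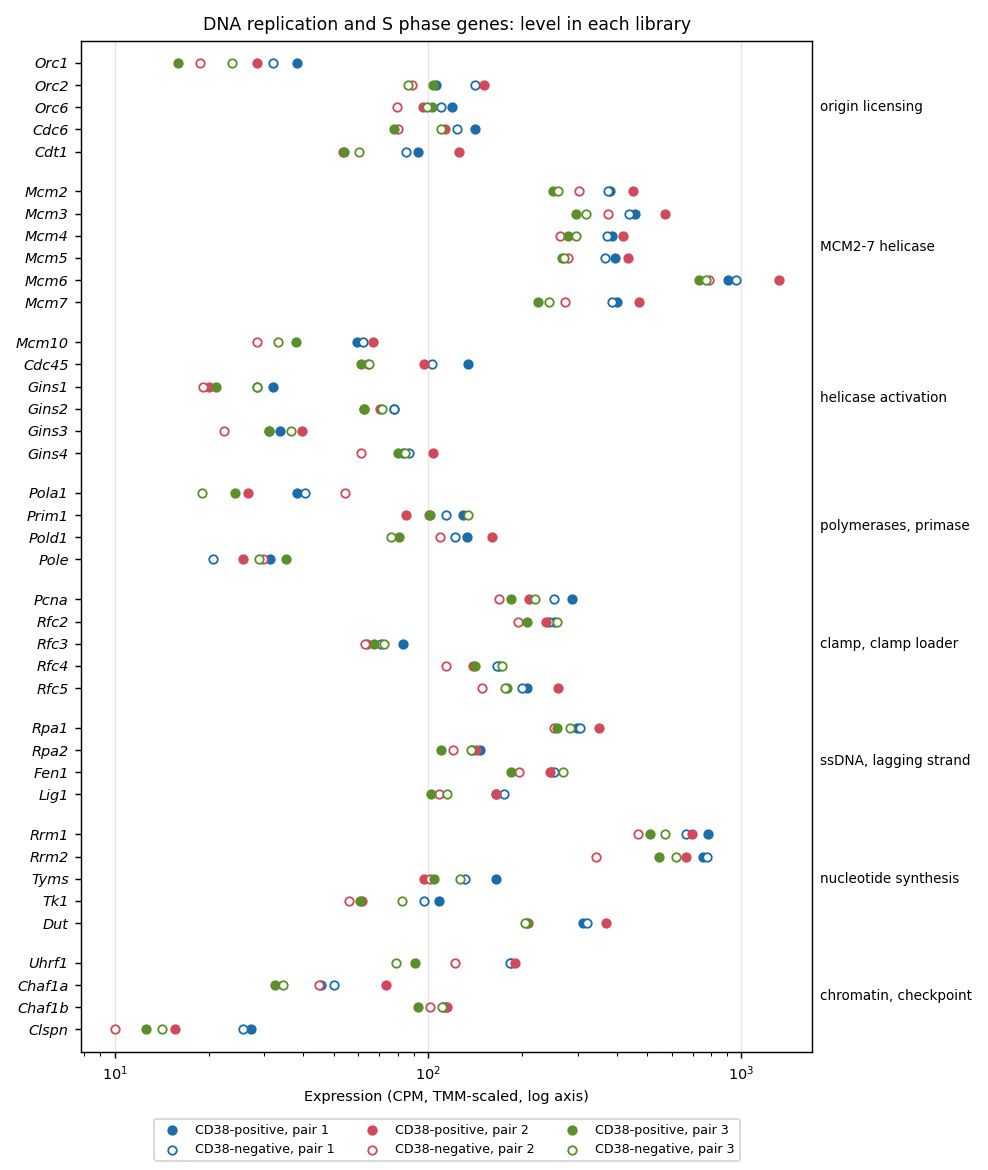
Expression of each of the 39 genes (CPM after TMM scaling, logarithmic axis) in the 6 libraries, grouped by role; filled points are CD38-positive and open points CD38-negative libraries, and colour marks the pair. The filled point of pair 2 lies furthest right for 18 genes and the open point of pair 2 furthest left for 17.

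Origin licensing was represented by Orc1, Orc2 and Orc6, subunits of the complex that marks origins, and by the MCM loaders Cdc6 and Cdt1. Their median log2 fold change was 0.15, and all 5 were above 0 in the fit, although the pair medians were 0.13, 0.60 and -0.16. Cdt1 (ENSMUSG00000006585, chromosome 8, 122568015 to 122573554, plus strand) had the smallest p-value of the 5. It was at 92.9, 126 and 53.8 CPM in CD38-positive replicates 1, 2 and 3, and 84.9, 53.5 and 60.2 CPM in their CD38-negative partners. CD38-positive replicate 2 stood above the other 5 libraries, and CD38-negative replicate 2 was as low as CD38-positive replicate 3, so the populations overlapped. Fitted over the 3 pairs, the log2 fold change came to 0.40 (SE 0.25, 95% interval -0.13 to 0.93, edgeR adjusted p = 0.929), from paired differences of 0.13, 1.23 and -0.16.

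Orc2 (ENSMUSG00000026037, chromosome 1, 58462771 to 58505109, minus strand), a core ORC subunit, was at 106, 151 and 104 CPM in CD38-positive replicates 1, 2 and 3, and 142, 88.8 and 86.6 CPM in their CD38-negative partners. The sign differed between pairs 1 and 2 (-0.41, 0.76 and 0.26), and the fitted log2 difference was 0.20 (SE 0.22, edgeR adjusted p = 0.943). Nif3l1 on the opposite strand shares exon sequence with Orc2. Cdc6 and Orc1, whose products are both ATPases of the loading reaction, had like patterns. Paired differences were 0.20, 0.49 and -0.49 for Cdc6 and 0.25, 0.60 and -0.57 for Orc1, above 0 in pairs 1 and 2 and below 0 in pair 3. Orc6, which overlaps Vps35, had 0.12, 0.28 and 0.06.

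The MCM2-7 genes encode the subunits of the helicase ring, which contains 1 copy of each. Under TMM scaling all 6 genes showed one shape: near 0 in pair 1 (-0.08 to 0.11), above 0 in pair 2 (0.58 to 0.78) and slightly below 0 in pair 3 (-0.11 to -0.02). Their fitted log2 fold changes ran from 0.18 for Mcm2 to 0.24 for Mcm5 and Mcm7, and 0 of 6 passed the test. In summed CPM the ring genes were at 2931, 3666 and 2050.1 in CD38-positive replicates 1, 2 and 3 and at 2902, 2282 and 2161 in their partners.

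Mcm6 (ENSMUSG00000026355, chromosome 1, 128331590 to 128359664, minus strand), whose product sits between MCM2 and MCM4 in the ring, was at 909, 1319.9 and 732 CPM in CD38-positive replicates 1, 2 and 3, and 964, 787 and 773 CPM in their CD38-negative partners. CD38-positive replicate 2 was well above the rest, and the other 5 libraries lay between 732 and 964 CPM. The fitted difference on the log2 scale was 0.19 (SE 0.22, 95% interval -0.29 to 0.67, edgeR adjusted p = 0.943). Mcm5 (ENSMUSG00000005410, chromosome 8, 75109569 to 75128439, plus strand), which with Mcm2 forms the gate where the ring opens, was at 396, 436 and 267 CPM in CD38-positive replicates 1, 2 and 3, and 368, 279.5 and 271 CPM in their CD38-negative partners. Both pair 1 libraries and CD38-positive replicate 2 were high, the other 3 lay close together, and the log2 fold change came to 0.24 (SE 0.20, edgeR adjusted p = 0.933).

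Per kilobase of the longest annotated transcript, Mcm6 was above the other ring genes in every library. It averaged 209.9 ± 49.9 CPM per kb (SD over 6 libraries), against 93.7 to 119 for Mcm2, Mcm3, Mcm4, Mcm5 and Mcm7, whose ranges over the libraries overlapped. Mcm6 made up 25.7% to 30.2% of the ring's summed CPM per kb, and the other subunits 11.7% to 17.5% each. These shares thus varied less between libraries than the summed level did. Mcm7 overlaps genes on the opposite strand.

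**Figure D3:**
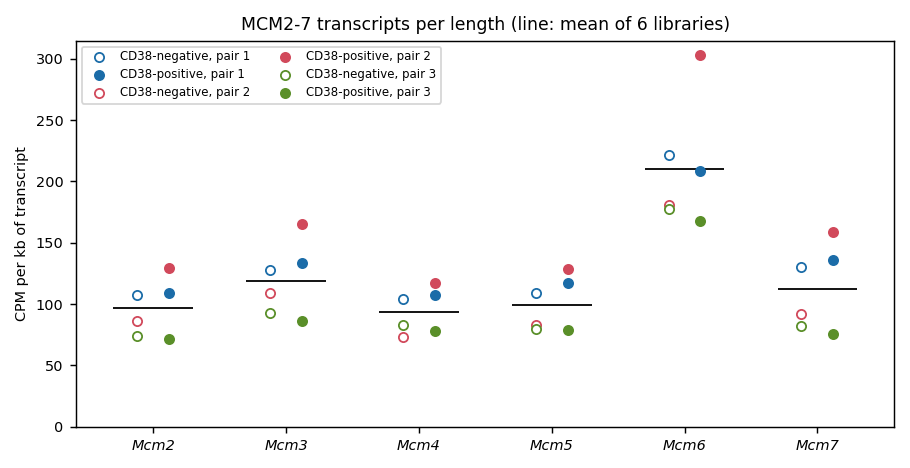
Transcript level of the MCM2-7 genes per kilobase of transcript (vertical axis, CPM per kb) in the 6 libraries; open points are CD38-negative, filled points CD38-positive, colour marks the pair and the line is the mean of all 6. Mcm6 lies between 168 and 303 CPM per kb and the other genes between 71.7 and 166.

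Helicase activation needs CDC45, the 4 GINS subunits and MCM10. For this group the median log2 fold change was 0.22, with pair medians of 0.06, 0.68 and -0.13. Mcm10 (ENSMUSG00000026669, chromosome 2, 4989714 to 5012791, minus strand), whose product is needed for the paired helicases to separate, was at 59.3, 66.8 and 37.9 CPM in CD38-positive replicates 1, 2 and 3, and 62.0, 28.5 and 33.3 CPM in their CD38-negative partners. Pair 1 was high in both populations, pair 3 was low in both, and pair 2 held the highest and the lowest library. The log2 fold change of 0.44 (SE 0.25, 95% interval -0.09 to 0.98, edgeR adjusted p = 0.926) came from paired differences of -0.06, 1.22 and 0.19, and was 0.047 without pair 2 and 0.71 without pair 1.

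Cdc45 (ENSMUSG00000000028, chromosome 16, 18780447 to 18811987, minus strand) was at 135, 97.3 and 61.3 CPM in CD38-positive replicates 1, 2 and 3, and 103, 64.3 and 64.8 CPM in their CD38-negative partners. Here CD38-positive replicate 1 was the highest library, ahead of its partner and CD38-positive replicate 2, and the pair 3 libraries differed little. On the log2 scale the fit gave 0.30 (SE 0.20, edgeR adjusted p = 0.929), and exons of Ufd1 overlap on the other strand. Gins2 (ENSMUSG00000031821, chromosome 8, 120578633 to 120589304, minus strand) was among the most even of the 39 genes, at 78.1, 70.3 and 62.4 CPM in CD38-positive replicates 1, 2 and 3, and 77.8, 62.4 and 71.2 CPM in their CD38-negative partners, with a fitted log2 difference of 0.00 (SE 0.19, edgeR adjusted p = 0.998). The 4 GINS subunits, which work as 1 complex, were not alike in pair 2: the differences were 0.07, 0.17, 0.82 and 0.76 for Gins1, Gins2, Gins3 and Gins4.

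Polymerases and primase were the one role whose median difference was below 0 in pair 2 (-0.22, against 0.15 in pair 1 and 0.18 in pair 3). Pola1 (ENSMUSG00000006678, chromosome X, 93304767 to 93632155, minus strand), the catalytic subunit of the polymerase alpha complex that starts each new strand, was at 38.2, 26.6 and 24.3 CPM in CD38-positive replicates 1, 2 and 3, and 40.4, 54.5 and 19.1 CPM in their CD38-negative partners. CD38-negative replicate 2, the lowest library for 17 other genes of the list, was the highest for Pola1. It had the widest range of the 39 genes, 2.86-fold from lowest to highest, and paired differences of -0.08, -1.03 and 0.35. Its fitted log2 difference was -0.26 (SE 0.26, 95% interval -0.81 to 0.30, edgeR adjusted p = 0.936).

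Prim1, which encodes the catalytic primase subunit of the same complex, had paired differences of 0.17, -0.24 and -0.40. Pola2 and Prim2, its other subunits, were not among the 39 and had 0.06, 0.47 and -0.59 and -0.01, 0.56 and -0.21. The 4 subunits of 1 complex thus had pair 2 differences from -1.03 to 0.56. Pold1 (ENSMUSG00000038644, chromosome 7, 44532746 to 44548849, minus strand), the catalytic subunit of the main lagging-strand polymerase delta, was at 133, 159.6 and 80.7 CPM in CD38-positive replicates 1, 2 and 3, and 122, 109 and 76.4 CPM in their CD38-negative partners. It was higher in the CD38-positive library of every pair, but differences between pairs were wider than those within pairs 1 and 3, and the fitted log2 difference was 0.25 (SE 0.19, edgeR adjusted p = 0.932). Pole, for the leading-strand polymerase epsilon, had 0.60, -0.21 and 0.29.

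PCNA is the ring that holds polymerases on DNA, and replication factor C (RFC) opens and loads it. Fitted log2 fold changes in this group were 0.00 to 0.29, with a median of 0.05, and Rfc2 moved to -0.01 when library totals were left unscaled, 1 of 3 genes in the list of 39 that changed sign then. Rfc5 (ENSMUSG00000029363, chromosome 5, 117378103 to 117389047, minus strand) was at 208, 259 and 179 CPM in CD38-positive replicates 1, 2 and 3, and 199.6, 149 and 176 CPM in their CD38-negative partners. CD38-positive replicate 2 was again the highest and its partner the lowest, and the log2 fold change came to 0.29 (SE 0.21, edgeR adjusted p = 0.930). Wsb2 overlaps it on the opposite strand.

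Rfc2 (ENSMUSG00000023104, chromosome 5, 134581366 to 134601805, plus strand) was at 253, 238 and 207 CPM in CD38-positive replicates 1, 2 and 3, and 244, 193 and 258 CPM in their CD38-negative partners. Its highest library was CD38-negative replicate 3, its lowest CD38-negative replicate 2, and the fitted log2 difference was 0.01 (SE 0.20, 95% interval -0.41 to 0.43, edgeR adjusted p = 0.996). Rfc3 (ENSMUSG00000033970, chromosome 5, 151642756 to 151651242, minus strand) was nearly level, at 83.4, 64.0 and 67.0 CPM in CD38-positive replicates 1, 2 and 3, and 70.9, 63.0 and 72.5 CPM in their CD38-negative partners, with a fitted log2 difference of 0.05 (SE 0.19, edgeR adjusted p = 0.981). Among the 4 loader subunits the pair 2 difference was 0.80 for Rfc5 but 0.30, 0.02 and 0.28 for Rfc2, Rfc3 and Rfc4. Pcna had paired differences of 0.19, 0.31 and -0.25.

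The single-strand binding proteins RPA1 and RPA2, the flap nuclease FEN1 and DNA ligase 1 finish lagging-strand synthesis. The median log2 fold change of these 4 was 0.05. Rpa1 (ENSMUSG00000000751, chromosome 11, 75298166 to 75348324, minus strand) was at 298, 352 and 258 CPM in CD38-positive replicates 1, 2 and 3, and 305, 253 and 283 CPM in their CD38-negative partners, a span of 1.39-fold from lowest to highest library, and the log2 fold change came to 0.10 (SE 0.20, edgeR adjusted p = 0.966). Lig1 (ENSMUSG00000056394, chromosome 7, 13277283 to 13311433, plus strand) was at 165, 165 and 102 CPM in CD38-positive replicates 1, 2 and 3, and 174, 109 and 115 CPM in their CD38-negative partners, high in pair 1 and in CD38-positive replicate 2, and low in both pair 3 libraries and CD38-negative replicate 2. Fitted over the 3 pairs, the log2 fold change came to 0.11 (SE 0.20, edgeR adjusted p = 0.963).

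Fen1 had the lowest pair 3 difference of these 4 (-0.03, 0.33 and -0.56). Gm10143, annotated antisense to Fen1, had 22981 reads over the 6 libraries against 23922 for Fen1, so the Fen1 value is uncertain.

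Deoxynucleotide supply depends on ribonucleotide reductase (RRM1 and RRM2), thymidylate synthase (TYMS), thymidine kinase 1 (TK1) and dUTPase (DUT). Rrm2 (ENSMUSG00000020649, chromosome 12, 24708241 to 24714146, plus strand), the subunit whose level limits the enzyme in S phase, was at 751, 665 and 546 CPM in CD38-positive replicates 1, 2 and 3, and 777, 343 and 616 CPM in their CD38-negative partners. CD38-negative replicate 2 was far below the other 5 libraries, and the fitted log2 difference was 0.24 (SE 0.24, 95% interval -0.27 to 0.75, edgeR adjusted p = 0.936). Per kilobase Rrm2 was the most abundant of the 39 genes, at 281 ± 72.4 CPM per kb (SD over 6 libraries), followed by Mcm6. These 2 overlap within their SD.

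Dut (ENSMUSG00000027203, chromosome 2, 125247190 to 125258608, plus strand) was at 312, 371 and 207 CPM in CD38-positive replicates 1, 2 and 3, and 321, 208 and 204 CPM in their CD38-negative partners. Pair 1 and CD38-positive replicate 2 were high and the other 3 libraries lay within 204 to 208 CPM, with a fitted log2 difference of 0.27 (SE 0.22, 95% interval -0.20 to 0.73, edgeR adjusted p = 0.932). The thymidylate genes did not share this shape. Tyms and Tk1 had pair 2 differences of -0.06 and 0.14, and their highest library was CD38-positive replicate 1. Rrm1 had 0.23, 0.57 and -0.16.

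Chromatin and checkpoint genes were Chaf1a and Chaf1b, subunits of the chromatin assembly factor that deposits histones on new DNA, Uhrf1, which brings DNA methyltransferase to new DNA, and Clspn, an adaptor of the replication checkpoint. Uhrf1 (ENSMUSG00000001228, chromosome 17, 56303321 to 56323486, plus strand) was at 185, 189.6 and 91.1 CPM in CD38-positive replicates 1, 2 and 3, and 183, 122 and 79.0 CPM in their CD38-negative partners. Its spread followed the pairs more than the populations, with both pair 3 libraries lowest, and the log2 fold change came to 0.28 (SE 0.20, 95% interval -0.13 to 0.70, edgeR adjusted p = 0.930). Chaf1b (ENSMUSG00000022945, chromosome 16, 93883901 to 93906115, plus strand) was the most even gene of the list, at 112, 115 and 92.6 CPM in CD38-positive replicates 1, 2 and 3, and 114, 101 and 111 CPM in their CD38-negative partners, with a fitted log2 difference of -0.04 (SE 0.19, edgeR adjusted p = 0.983). Its partner Chaf1a had a pair 2 difference of 0.70 against 0.19 for Chaf1b.

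Clspn (ENSMUSG00000042489, chromosome 4, 126556935 to 126593903, plus strand) was the least abundant per kilobase, at 3.49 ± 1.43 CPM per kb (SD over 6 libraries). It was at 27.2, 15.6 and 12.6 CPM in CD38-positive replicates 1, 2 and 3, and 25.8, 10.0 and 14.2 CPM in their CD38-negative partners, where both pair 1 libraries were highest, and the fitted log2 difference was 0.18 (SE 0.25, edgeR adjusted p = 0.955). Over all 39 genes the median range from lowest to highest library was 0.80 on the log2 scale, against 0.93 for all genes tested. The latter include genes with fewer reads, and these medians were not matched for abundance.

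Genes with and without E2F-type letters had like differences in pair 2. The 22 genes with an E2F-type match in a RefSeq window had a median pair 2 difference of 0.60 and the 11 without one 0.58. Pola1, with 4 matches in its window (3 of them in the stretch printed above), had the lowest value. Cdt1, with 2 matches in its window, had the highest (1.23), and Mcm10, with none, the next (1.22). Both medians are descriptions, and a missing match says only that these letters are not in the window.

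Other genes of replication and of the cell cycle were compared in the same fit. Of 49 further replication genes, 0 passed an adjusted p-value of 0.05 in either direction. At an unadjusted p-value under 0.05 in edgeR, 1 of the 49 was higher and 0 lower, against 2.47% and 2.61% of all genes. Their median log2 fold change was 0.01, and the pair medians of 0.02, 0.31 and -0.19 had the same signs as those of the 39 genes under TMM scaling. Dbf4, the activator of the CDC7 kinase that fires origins, had the smallest p-value of these. It was at 30.5, 35.8 and 27.6 CPM in CD38-positive replicates 1, 2 and 3 and 27.0, 14.1 and 21.6 CPM in their partners, with a fitted log2 difference of 0.62 (SE 0.26, edgeR unadjusted p-value 0.0306, adjusted p = 0.925). Rrm2b, the reductase subunit used outside S phase, was at 8.99, 6.17 and 18.4 CPM in CD38-positive replicates 1, 2 and 3 and 13.7, 24.7 and 13.6 CPM in their partners. It was highest in CD38-negative replicate 2, where Rrm2 was lowest, and its log2 fold change was -0.71 (SE 0.37, edgeR unadjusted p-value 0.0805, adjusted p = 0.926). Without pair 2 the fitted value was 0.25 for Dbf4 and -0.085 for Rrm2b, and without pair 3 it was -1.30 for Rrm2b.

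Among 24 regulators of the G1 to S transition, 0 passed an adjusted p-value of 0.05. At an unadjusted p-value under 0.05 in edgeR, 1 was higher and 1 lower, against 2.47% and 2.61% of all genes. E2f3, an E2F activator, was at 12.4, 11.6 and 8.88 CPM in CD38-positive replicates 1, 2 and 3 and 17.0, 19.3 and 15.0 CPM in their partners. The log2 fold change was -0.65 (SE 0.24, edgeR unadjusted p-value 0.0184, adjusted p = 0.925), with paired differences of -0.45, -0.73 and -0.75. Ccna2, for the S phase cyclin A2, was at 563, 692 and 301 CPM in CD38-positive replicates 1, 2 and 3 and 504, 227 and 281 CPM in their partners, and its difference of 1.61 in pair 2 was larger than that of any of the 39 genes. Its log2 fold change was 0.61 (SE 0.27, edgeR unadjusted p-value 0.0411, adjusted p = 0.926), and 0.12 without pair 2.

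For 26 genes of G2 and mitosis the pair 2 difference was larger still: all 26 were above 0 there, against 48.7% of all genes. The median of the 26 was 0.97, against 0.58 for the 39 replication genes. In pairs 1 and 3 the medians of the 26 were 0.15 and -0.03. There 23 and 13 of them were above 0, against 50.3% and 52.6% of all genes. In all 3 pairs 11 of the 26 were above 0, against 13.2% of all genes. All 26 fitted log2 fold changes were above 0 (median 0.33), against 50.1% of all genes. Over the 3 pairs 0 of the 26 passed an adjusted p-value of 0.05. At an unadjusted p-value under 0.05 in edgeR, 2 were higher and 0 lower, against 2.47% and 2.61% of all genes. These 2 were Aurkb, for a mitotic kinase, and Cenpe, for a kinetochore motor. Aurkb was at 185, 184 and 119 CPM in CD38-positive replicates 1, 2 and 3 and 157, 83.5 and 111 CPM in their partners, with a fitted log2 difference of 0.49 (SE 0.22, edgeR unadjusted p-value 0.0459, adjusted p = 0.926) from paired differences of 0.24, 1.14 and 0.10. Cenpe was at 99.8, 75.8 and 56.3 CPM in CD38-positive replicates 1, 2 and 3 and 94.1, 24.96 and 51.4 CPM in their partners, with 0.59 (SE 0.27, edgeR unadjusted p-value 0.0463, adjusted p = 0.926) from paired differences of 0.09, 1.60 and 0.13. Both differences were largest in pair 2, and without that pair the fitted values were 0.15 for Aurkb and 0.096 for Cenpe. Summed over the list, mitosis genes were at 4787, 4092 and 3077 CPM in CD38-positive replicates 1, 2 and 3 and at 4357, 2174 and 3274 CPM in their partners. CD38-positive replicate 2 had the highest sum of replication genes but only rank 3 for mitosis genes. The ratio of the 2 sums ran from 0.364 in CD38-negative replicate 2 to 0.562 in CD38-positive replicate 1.

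**Figure D4:**
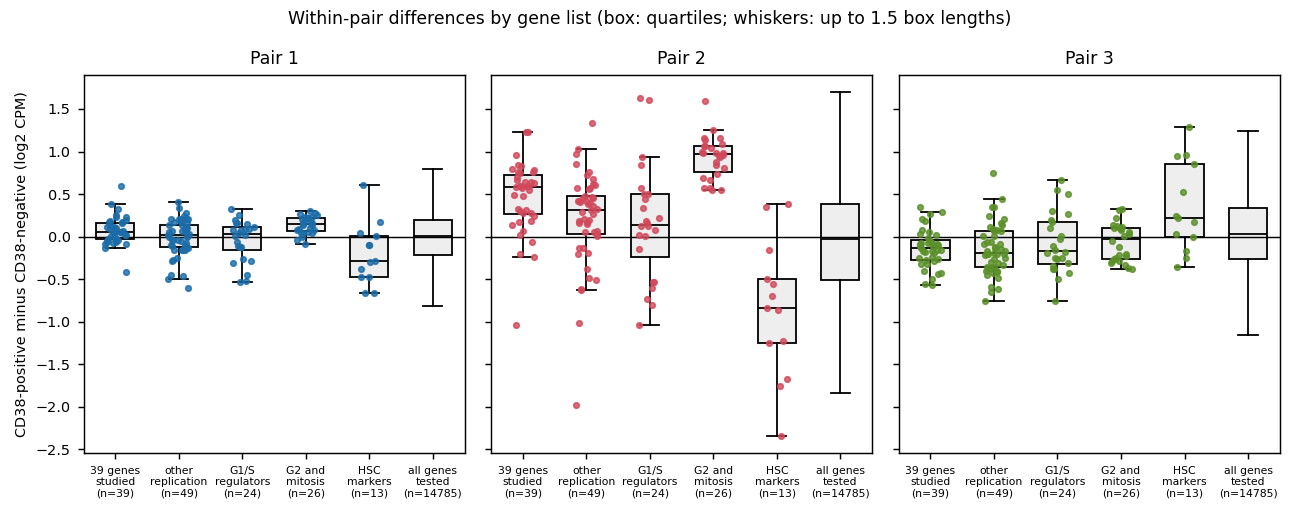
Difference between CD38-positive and CD38-negative libraries (log2 CPM after TMM scaling, vertical axis) in each pair, for the 39 genes, 3 further cell cycle lists, HSC markers and all genes tested; points are genes, boxes are quartiles with the median. In pair 2 the medians are 0.58 for the 39 genes, 0.97 for mitosis genes and -0.84 for HSC markers.

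HSC markers were ordered the other way across the libraries, and in edgeR 0 of 13 passed an adjusted p-value of 0.05, with 1 higher (Cd38, on which the populations were sorted) and 4 lower at an unadjusted p-value under 0.05, against 2.47% and 2.61% of all genes. Summed over 13 genes they were at 927, 1182 and 1962 CPM in CD38-positive replicates 1, 2 and 3 and at 1161, 2525 and 1717 CPM in their partners. CD38-negative replicate 2, lowest for the replication genes, was the highest library, and the 3 libraries with the highest sum of replication genes were the 3 lowest for HSC markers. The medians of the within-pair differences of HSC markers were -0.29, -0.84 and 0.22, opposite in sign, under TMM scaling, to those of the 39 genes in each pair.

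Markers of granulocyte progenitors, which divide actively, were detected for all 6 genes, with none at 0 in any library. They summed to 8627 to 16253 CPM in CD38-positive and 9037 to 12226 CPM in CD38-negative libraries. Within pairs their sums, which are mostly Mpo, differed by 0.68, 0.25 and -0.50 on the log2 scale, and 5, 3 and 0 of the 6 genes were above 0 in pairs 1, 2 and 3. Over all genes the shares above 0 were 50.3%, 48.7% and 52.6%. All 10 erythroid markers were detected too, with sums of 2604 to 9210.1 CPM and 3894 to 7598 CPM and within-pair differences of the sums of 0.28, -0.50 and -0.58, and 9, 3 and 0 of the 10 were above 0. Monocyte and dendritic cell markers, 6 genes with none at 0, had sums of 290.0 to 475 CPM against 192 to 344 CPM. The sum was larger in the CD38-positive library of every pair, by 0.40, 0.94 and 0.60. In all 3 pairs 4 of the 6 genes were above 0, against 13.2% of all genes. The sort on Lin-, Kit+, Sca-1+ and CD48- cells is designed to leave such cells out. The part of these cells in the replication gene values was not tested.

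**Figure D5:**
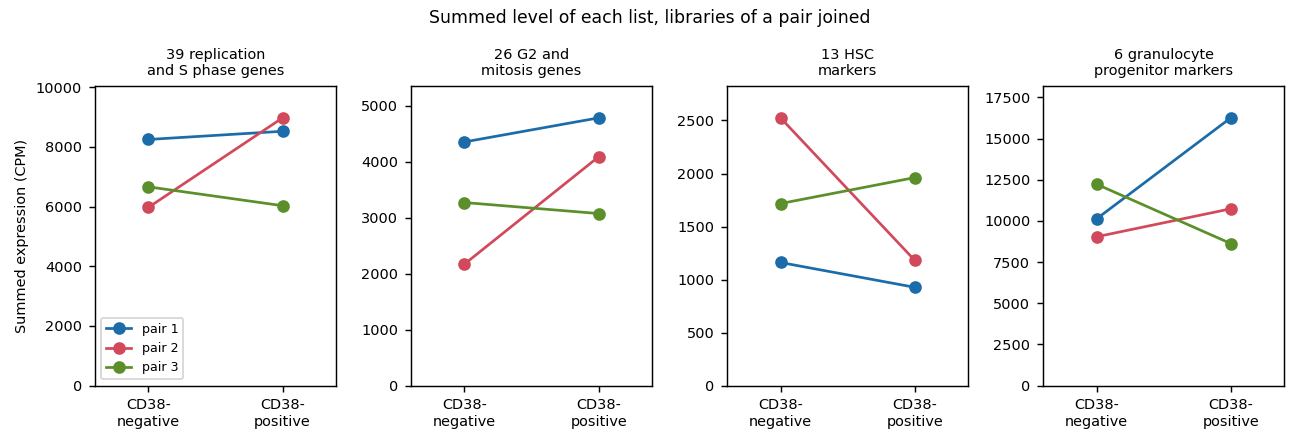
Summed expression (CPM, vertical axes from 0, with their own scale) of the 39 replication and S phase genes, mitosis genes, HSC markers and granulocyte progenitor markers in each library; lines join the libraries of a pair. In pair 2 the replication genes go from 5975 to 8973 CPM and HSC markers from 2525 to 1182 CPM, from CD38-negative to CD38-positive.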

How the data were processed

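Bulk RNA was sequenced from 6 libraries, 3 per population. The authors deposited raw read counts per Ensembl gene; cutadapt, STAR, HTSeq 0.6.1p1 and GRCm38 are named in the submitters' processing notes, while the annotation release and strand setting are not given in the sources used here. Symbols (49326 of 49585 identifiers), coordinates and transcript lengths came from GENCODE M21 (GRCm38), promoters from RefSeq on GRCm38.p6.

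Genes were kept with filterByExpr and scaled by TMM in edgeR 4.0.16 (R 4.3.3). The quasi-likelihood F-test was fitted on the whole table with terms for pair and for population, with Benjamini-Hochberg adjustment at 0.05. Standard errors came from the quasi-F statistic, and intervals from them at a level of 0.95. The pair was a replicate block because the design text compares by pair; deviations of paired libraries from population means correlated at 0.34, 0.12 and 0.24. Within-pair differences used log2 CPM with a prior count of 2. No 2 replicates of a population agreed within sampling noise (chi-square over its degrees of freedom, 51.4 to 116). The labels give separate pools but no other sign of independence. Because the fit had a term for pair, its p-values do not measure the whole spread between these pools. They measure how the difference between populations varied from pair to pair, with much of that spread borrowed from other genes. The fit was tested on simulated counts that held no pair effect and no correlation between genes. Of 100 abundant genes changed 2-fold, 65 were called, and of 100 changed 4-fold, 100 were called. Among unchanged genes 5 were called. The adjustment depends on how many genes differ, and in the libraries themselves just 2 of 14785 genes were called. These were Igha and Clu, with fitted log2 fold changes of -4.40 and 1.58. Plk2 and Vwf, at 1.18 and 1.15, were not called (edgeR adjusted p = 0.145 and 0.293). The simulated share for 2-fold changes therefore does not give the share that would be called in these libraries.

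The 39 genes and all lists were chosen with earlier results of these data known. Named with values in every library were, per role, the gene with the highest mean CPM and the one with the smallest p-value, any gene with an unadjusted p-value under 0.05 (none), the 3 genes with the widest and the 3 with the narrowest range, and, in each other cycle list, the 2 with the smallest p-values. Alternatives were no block, DESeq2 1.42.0, limma-voom (limma 3.58.1), DESeq2 size factors, unscaled totals, other filters, and leaving out each pair.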

Additional observations from a re-analysis of the deposited data

How the results depend on the processing

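The count of the 39 genes past an adjusted p-value of 0.05 was 0 in edgeR with the replicate block and stayed 0 under each alternative run: without the replicate block, with DESeq2, with limma-voom, with either other scaling, with either other filter and without each pair. At an unadjusted p-value under 0.05 it was also 0, except for 1 gene without pair 1 (Mcm10) and 1 without pair 3 (Cdt1). Over all genes, 1205 of 14945 were under 0.05 without pair 1 and 895 of 14850 without pair 3. The median log2 fold change of the list, 0.18, was 0.16 to 0.18 under the alternatives that kept all pairs and went as low as -0.06 and as high as 0.30 in fits on 2 pairs. Within pairs, the number of the 39 genes above 0 went from 27, 35 and 9 with TMM to 12, 34 and 20 with unscaled totals. Over all genes, 2 were called; the count was 0 without the replicate block and with unscaled totals (417 and 595 genes at an unadjusted p-value under 0.05), 11 with DESeq2, 7 with DESeq2 size factors, 80 with no filter and 13 with a mean of at least 10 counts, and the cause was not tested. Leaving out a pair gave 2 to 41. Of the genes given in every library, Rfc2 changed sign with unscaled totals (-0.0098). In fits on 2 pairs, log2 fold changes that changed sign ran from -0.089 to 0.51 for Orc2, -0.027 to 0.68 for Cdt1, -0.094 to 0.33 for Mcm6, -0.10 to 0.087 for Gins2, -0.56 to 0.12 for Pola1, -0.15 to 0.17 for Rfc2, -0.045 to 0.13 for Rfc3, -0.094 to 0.22 for Rpa1, -0.14 to 0.26 for Lig1, -0.12 to 0.45 for Rrm2, -0.025 to 0.43 for Dut, -0.16 to 0.076 for Chaf1b and -0.058 to 0.35 for Clspn. Those that kept their sign but moved by over 1.5 times ran from 0.032 to 0.37 for Mcm5, 0.047 to 0.71 for Mcm10, 0.14 to 0.49 for Cdc45, 0.089 to 0.34 for Pold1, 0.029 to 0.43 for Rfc5, 0.097 to 0.42 for Uhrf1, 0.25 to 0.84 for Dbf4, -1.30 to -0.085 for Rrm2b, 0.12 to 0.88 for Ccna2, 0.15 to 0.69 for Aurkb and 0.096 to 0.86 for Cenpe, each nearest 0 without pair 2, while E2f3 stayed between -0.75 and -0.59. Levels under 3 reads, or 0.179 CPM before TMM scaling in the shallowest library, cannot be seen here, and every gene of the list was well above that.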
